A study of Homo sapiens with 24 samples.

Results

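These data describe the transcript levels of 3D LUHMES aggregates directly after a 24 h exposure to 100 nM rotenone. The comparison takes 6 of the 24 arrays of the series, by their labels: 3 arrays of rotenone-treated aggregates on day 8 of differentiation, and 3 of vehicle-treated aggregates of the same day. LUHMES is a conditionally immortalized cell line from human fetal mesencephalon that stops dividing and takes on a dopaminergic neuronal phenotype once tetracycline shuts off its v-myc transgene. The cells grew as aggregates on a gyratory shaker in medium with cAMP, GDNF, tetracycline and N2 supplement, which both groups received. Rotenone was added on day 7, and the control wells received the volume of the solvent DMSO that the 100 nM wells received. The other 18 arrays, 3 per group, hold aggregates after 12 or 24 h at 50 nM, and aggregates of each exposure that were washed and kept for 7 further days, until day 15. The labels call the replicates wells of this 1 cell line, so p-values measure the spread between these wells, which may be technical.

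Rotenone binds complex I of the respiratory chain, the enzyme that passes electrons from NADH to ubiquinone while pumping protons, and so slows mitochondrial ATP synthesis. Neurons with long axons, dopaminergic neurons among them, depend on that supply, and the compound is used to model parkinsonian injury. It also binds tubulin and hinders microtubule assembly. Cells can answer a loss of respiration with changes in glucose sensing, lipid synthesis and amino acid metabolism. The results below take up genes of these groups, and of signalling and structural proteins, in turn. Whether a change came from the loss of respiration was not tested.

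The arrays came on 3 slides that each carried every group once, so every rotenone array has a DMSO array from the same slide, and replicates are numbered by slide. Slide 1 was a repeated slide that the labels mark for batch correction. A group kept its place from slide to slide, so place and group cannot be told apart. On slide 1, 67.3% of the spots of the DMSO array and 68.6% of those of the rotenone array were well above background, against 54.0% to 56.9% and 50.9% to 53.6% on the other slides. No spot was saturated. Values per array are quantile-normalized log2 signals of a gene, and a log2 fold change is the mean of the 3 rotenone minus DMSO differences within slides. A change in bulk RNA does not tell a smaller number of cells of 1 kind from less RNA per cell.

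The neuronal label was borne out by the markers. All 12 markers of postmitotic neurons were measured (well above background on all 3 arrays of a group) in both groups, and the summed signal on the linear scale ran from 268538 to 333910 over the DMSO arrays and from 265145 to 301018 over the rotenone arrays. No neuron marker was called. Under the 1.5-fold limit, MAP2, which stabilizes dendritic microtubules, was 0.57 lower on the log2 scale (limma adjusted p = 6.1e-04). ELAVL4 was likewise 0.50 lower (adjusted p = 0.0029) and SNAP25 0.30 lower (adjusted p = 0.038). None of the 12 was higher with an adjusted p under 0.05. For the dopaminergic identity, 8 of 12 markers were measured, and SLC18A2, the vesicular monoamine transporter, was not well above background on any of the 6 arrays. Of other cell types, AQP4 and GFAP of astrocytes, AIF1, C1QA, CX3CR1 and P2RY12 of microglia, and COL3A1 and DCN of fibroblasts were not measured in the DMSO arrays. Others were: OLIG1 and OLIG2, transcription factors of the oligodendrocyte lineage and of neural progenitors, stood at mean log2 signals of 12.59 and 9.36 in DMSO, and 5 of 7 tested markers of that lineage were measured, with a summed signal from 5926 to 7594 in DMSO and from 5441 to 7829 in rotenone. Measured in DMSO at lower signals were 5 of 9 fibroblast and mural markers (COL1A1, COL1A2, ACTA2, PDGFRB and TAGLN), CD68 and PTPRC of microglia, and SLC1A2 of astrocytes. Of 10 markers of proliferating progenitors 9 were measured in DMSO, the median log2 fold change was -0.39, and HES5 was called lower. Their summed signal did not follow the median, at 2195 to 2981 in DMSO and 2587 to 3342 in rotenone. NES (nestin), the brightest of them, stood at a mean of 10.45 in DMSO and 11.04 in rotenone (0.59 higher, adjusted p = 0.0911). PAX6 (-0.52) and TOP2A (-0.75), MKI67 (-0.50), BIRC5 (-0.40), AURKA (-0.38) and CCNB1 (-0.25) of the mitotic machinery did not pass the test. No marker of astrocytes, the oligodendrocyte lineage, microglia or fibroblasts was called.

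In the fit over all genes, 728 of 21344 genes (3.41%) were called, which means a change of more than 1.5-fold and an adjusted p under 0.05 (limma with slide as a block, Benjamini-Hochberg over all genes). Rotenone raised 311 of them (1.46% of all genes) and lowered 417 (1.95%). The change exceeded 2-fold for 54 of the raised and 89 of the lowered genes, and 4-fold for 5 genes. All 728 had the same sign on the 3 slides, against 46.3% of all genes, and for 658 (90.4%) no rotenone array overlapped a DMSO array, against 18% of all genes. With the fold limit set aside, 2185 genes passed on p alone, 935 higher and 1250 lower. Over all genes the median log2 fold change was -0.02. The balance of the directions rested on the scaling: with Feature Extraction's processed signal and percentile scaling in place of quantile normalization, the median of all genes moved to 0.10 and the calls became 579 higher and 447 lower, so the range of a list's median over the settings is given below after the median of all genes under the same setting was subtracted. Restricted to slides 2 and 3, which were not repeated, the fit called 431 genes. With only the 6 arrays compared and 2 residual degrees of freedom, none reached an adjusted p of 0.05, the smallest being 0.0898.

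**Figure D1:**
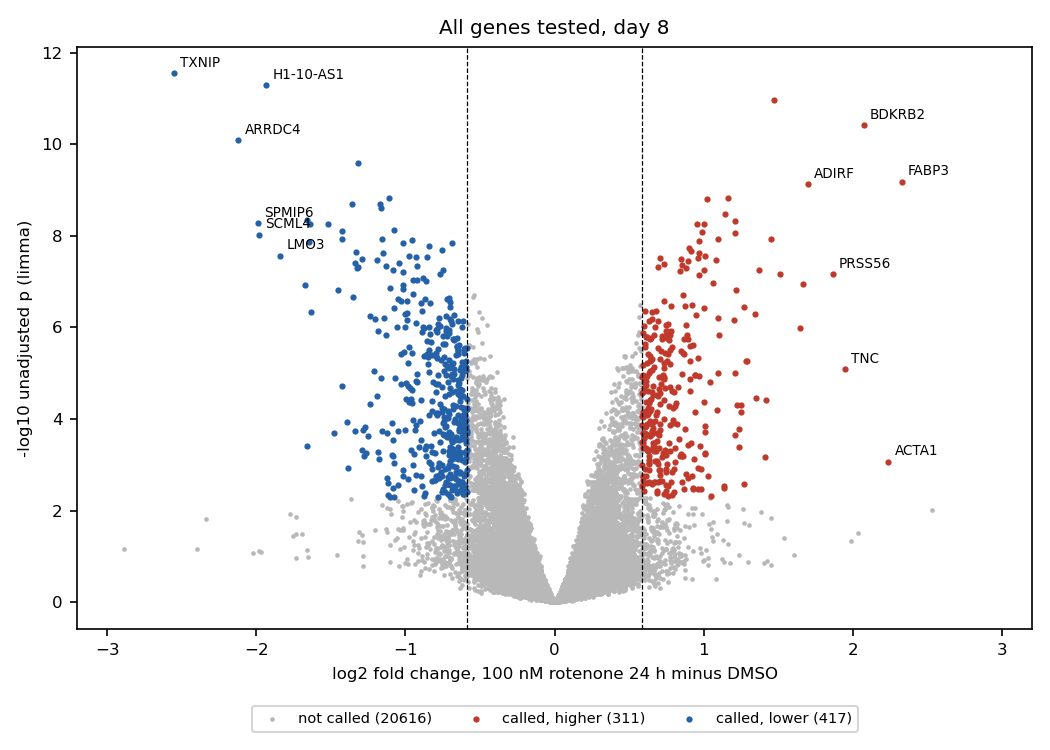
Each point is 1 of 21344 genes, with its log2 fold change (100 nM rotenone minus DMSO, day 8) on the x axis and minus log10 of its unadjusted limma p on the y axis. Dashed lines mark 1.5-fold, and the 311 genes called higher and 417 called lower lie outside them, with TXNIP farthest to the left among the called genes.

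Among called genes that were measured in both groups, the alpha-arrestins TXNIP and ARRDC4 fell furthest. TXNIP binds thioredoxin and promotes removal of glucose transporters from the cell surface, and ARRDC4 is its closest paralog in that role. TXNIP measured 12.61, 12.38 and 12.15 on the DMSO arrays of slides 1, 2 and 3, and 9.66, 10.06 and 9.75 on the rotenone arrays. The groups were separated by more than 2 log2 units, and the change over the 3 pairs was -2.55 ± 0.14 (limma adjusted p = 5.4e-08). Here and below, ± after a log2 fold change is the standard error of the fit to all 24 arrays. It rests on a spread pooled over all groups and not on the 3 differences alone. ARRDC4 measured 7.71, 7.90 and 7.74 in DMSO and 5.18, 5.996 and 5.81 in rotenone, a change of -2.12 ± 0.14. The other alpha-arrestins on the list were not called: ARRDC1, ARRDC2 and ARRDC3 stood at 0.13, -0.21 and 0.21. MLXIP (MondoA), the glucose-6-phosphate sensor known to drive both genes, was 0.59 higher, at 9.08, 8.74 and 9.10 against 9.70, 9.34 and 9.65, and fell short of 1.5-fold without the DMSO array of slide 2 (0.53) or the rotenone array of slide 1 (0.57) or 3 (0.55). Its 2 probes disagreed, at 0.20 and 0.98, and with the brighter probe alone the call was lost (0.20, adjusted p = 0.355), as it was with the authors' values (0.57) and on slides 2 and 3 (adjusted p = 0.0521).

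The promoters of the pair are shown because they hold the half-site of the carbohydrate response element, which MondoA and its partner MLX bind. The letters CACGNG were searched on both strands in the 250 bases before each annotated start (RefSeq, GRCh38.p14, 35116 promoters, several for some genes), with overlapping matches counted apart, and capitals mark them. The TXNIP window is chr1:145996580-145996829 on the minus strand, and the ARRDC4 window is chr15:97960453-97960702 on the plus strand.
TXNIP: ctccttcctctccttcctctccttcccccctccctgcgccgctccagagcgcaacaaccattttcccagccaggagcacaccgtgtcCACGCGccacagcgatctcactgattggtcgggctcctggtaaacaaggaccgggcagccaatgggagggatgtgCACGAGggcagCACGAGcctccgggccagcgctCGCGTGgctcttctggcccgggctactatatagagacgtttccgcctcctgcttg
ARRDC4: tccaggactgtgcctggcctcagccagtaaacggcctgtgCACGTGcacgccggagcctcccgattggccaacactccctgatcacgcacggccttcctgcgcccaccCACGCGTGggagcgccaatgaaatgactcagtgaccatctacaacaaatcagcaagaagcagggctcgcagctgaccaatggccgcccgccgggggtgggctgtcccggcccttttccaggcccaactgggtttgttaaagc
TXNIP held 4 matches, and ARRDC4 held 3, of which the last pair overlaps. TXNIP has 2 annotated starts, and the window shown was chosen for the most matches, while ARRDC4 has 1 start. At least 1 match was in 26.7% of all promoters and in 6 of 12 promoters of the list of alpha-arrestins and MondoA. It was also in 19 of 34 promoters of the cholesterol and fatty acid synthesis list. The spaced form, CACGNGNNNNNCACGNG on either strand, was in 16 of 35116 promoters, and TXNIP has it at the pair of matches that begin 88 and 77 bases before the start. A match is a description of these letters and not of binding.

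Among the genes with the largest increases, FABP3, a cytosolic fatty acid binding protein, measured 7.42, 7.24 and 7.38 in DMSO and 9.77, 9.52 and 9.73 in rotenone, a 5.02-fold rise (log2 2.33 ± 0.18, adjusted p = 2.0e-06). The 3 differences within slides lay between 2.28 and 2.35. BDKRB2, the B2 bradykinin receptor, rose from 8.24, 8.08 and 8.33 to 10.50, 10.27 and 10.09, a log2 change of 2.07 ± 0.13. TNC, the matrix glycoprotein tenascin-C, rose from 8.42, 8.10 and 8.73 to 10.55, 10.35 and 10.18, a change of 1.94 ± 0.30 whose call was lost on slides 2 and 3 alone. In each of these genes every rotenone array lay above every DMSO array. IL11, a cytokine of the interleukin-6 family, rose by 1.35 ± 0.17. NKD2, an inhibitor of Wnt signalling, rose by 1.45 ± 0.14. ECEL1, a neuronal membrane peptidase, rose by 1.67 ± 0.19, and the serine protease PRSS56 by 1.86 ± 0.20. The remaining large increases were ADIRF (1.70), C11orf96 (1.47), TMEM190 (1.37) and the long non-coding RNA LINC02308 (1.51).

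ACTA1, the actin of skeletal muscle, carried the second largest increase and the widest spread. It measured 8.97, 10.45 and 9.46 in DMSO and 11.73, 12.47 and 11.38 in rotenone, so the groups did not overlap although each spanned more than 1 log2 unit. The change was 2.24 ± 0.55 (adjusted p = 0.014), and the call was lost without DMSO replicate 1 or 3 or rotenone replicate 1 or 2, where the adjusted p lay between 0.0628 and 0.0715 and the change between 1.99 and 2.09.

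Below TXNIP and ARRDC4, LMO3, a LIM-only transcriptional cofactor expressed in dopaminergic neurons, fell from 8.81, 9.67 and 9.15 to 6.58, 8.10 and 7.43, a change of -1.84 ± 0.19. PCDH8, an activity-regulated protocadherin, fell from 8.09, 8.71 and 8.42 to 6.47, 7.21 and 6.98 (-1.52 ± 0.14). GPR39, a zinc-sensing receptor, fell from 6.06, 6.47 and 6.49 to 4.95, 4.30 and 4.75 (-1.67 ± 0.19). In none of these did the groups overlap. AMH, the anti-Müllerian hormone, fell by 1.66, and ACKR1, a scavenger receptor of chemokines, by 1.64 on the log2 scale. H1-10-AS1, a long non-coding RNA antisense to a linker histone gene, fell by 1.93, SPMIP6 by 1.99, the polycomb-like SCML4 by 1.99, LINC01163 by 1.65 and LRRC66 by 1.63.

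**Figure D2:**
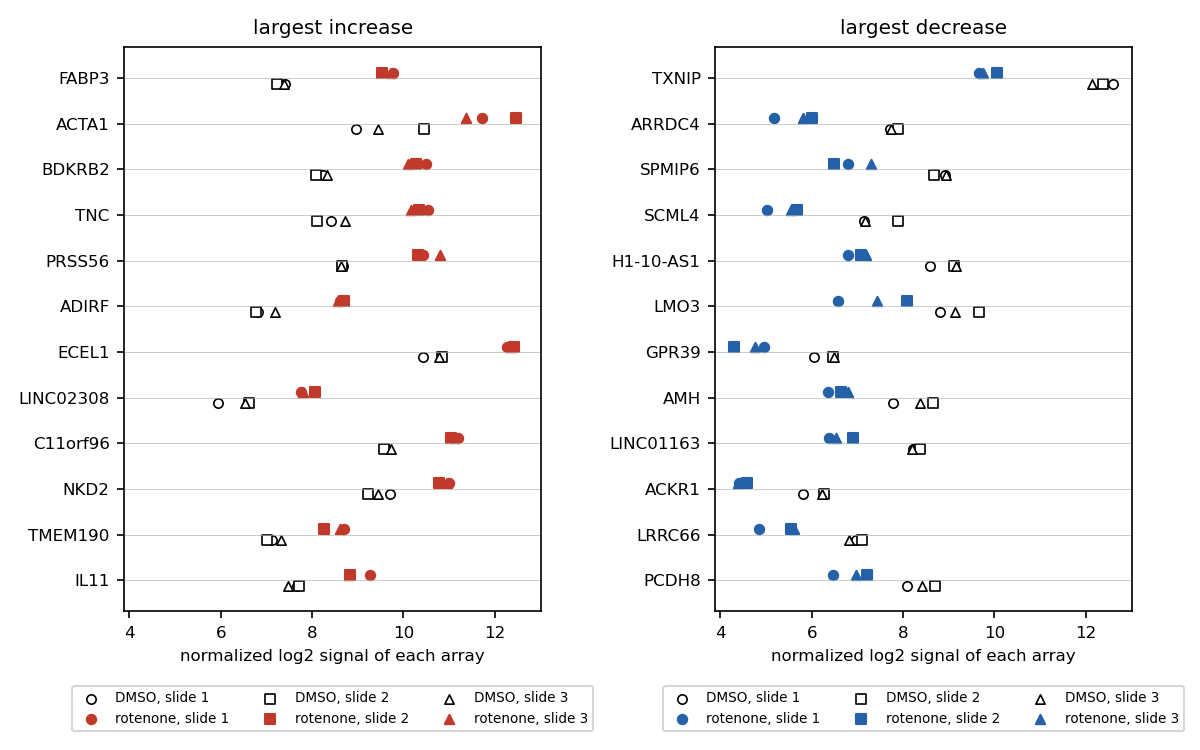
Normalized log2 signal (x axis) of each of the 6 arrays for the 12 genes with the largest increase (left) and the 12 with the largest decrease (right) among called genes of 1 sign on all slides that were well above background in both groups. Open symbols are DMSO and filled symbols rotenone, with a circle, square or triangle for slide 1, 2 or 3, and in no row do the groups overlap.

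Gene lists for pathways and classes are described by how many members were called and by their median log2 fold change, beside the 3.41% called and the median of -0.02 over all genes. The 71 lists held 201 of the 728 called genes, and 527 were in none. Medians and counts of higher and lower genes are against 0. A relative range is that of the list's median minus the median of all genes, over 19 settings of the processing and the arrays used.

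Genes of respiration itself stayed near the median of all genes. Of 37 nuclear subunits of complex I, 1 was called, and the list median was 0.03 (relative range 0.0020 to 0.15). NDUFV3, an accessory subunit of the NADH-oxidizing arm, rose from 10.80, 10.62 and 10.77 to 11.44, 11.31 and 11.40, a log2 change of 0.65 ± 0.08 (adjusted p = 1.1e-04). NDUFS1, the large iron-sulfur subunit, stood at 12.12, 12.29 and 12.38 in DMSO and 12.26, 12.17 and 12.28 in rotenone, overlapping groups with a difference of -0.03 ± 0.09. None of 18 complex I assembly factors was called, NDUFAF3 being 0.50 higher with an adjusted p of 7.9e-04. Among 45 subunits and assembly factors of complexes II, III and IV, UQCC2, an assembly factor of complex III, rose from 10.90, 10.82 and 10.66 to 11.92, 11.87 and 11.61 (2.01-fold, log2 SE 0.09, adjusted p = 5.5e-06), and COX19, a copper-handling factor of complex IV assembly, fell from 8.71, 8.94 and 8.88 to 7.99, 8.02 and 8.17 (-0.78 ± 0.10). No ATP synthase gene (19 tested) and no mitochondrial ribosomal protein (78 tested) was called. The smallest p among the ATP synthase genes was that of ATP5PD, at -0.37 (adjusted p = 0.0039).

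In the lists of fuel use, the share called was 7.7% for glycolysis and transport and 5.6% for fatty acid use, FABP3 included. It was 3.0% for the tricarboxylic acid cycle, against 3.41% of all genes. Of 26 glycolysis and glucose or lactate transport genes, ALDOC, the brain aldolase, and PFKP, the platelet form of phosphofructokinase, each rose by 0.64, and the median was -0.01. Both calls were thin: ALDOC fell below 1.5-fold without DMSO replicate 2 (0.50) or rotenone replicate 1 (0.58), and PFKP without DMSO replicate 1 (0.54) or rotenone replicate 1 (0.54). TIGAR, the phosphatase that turns glycolytic flux toward the pentose phosphate pathway, fell from 7.98, 8.14 and 7.81 to 6.58, 7.31 and 6.93 (-1.04 ± 0.11, adjusted p = 1.5e-05). In fatty acid oxidation (36 genes), CPT1A, the carnitine palmitoyltransferase that admits fatty acids to mitochondria, was 0.69 higher (0.57 without DMSO replicate 1), while its brain isoform CPT1C passed on p alone at -0.42 (adjusted p = 0.0021). PDP1, which reactivates pyruvate dehydrogenase, was the 1 called gene of 33 in the tricarboxylic acid cycle list, at -0.59. Its call was lost without DMSO replicate 1 or 2 or rotenone replicate 1 or 3, at -0.58 to -0.49.

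Cholesterol and fatty acid synthesis had the highest median of the 71 lists, at 0.30 (relative range 0.21 to 0.40), with 31 of 33 genes higher and 23 of them higher on every slide, against 21.0% of all genes. Of these, 3 were called higher and none lower, and on p alone 14 passed, all higher, against 4.38% of all genes. LSS, which closes squalene epoxide into lanosterol, rose from 9.23, 9.55 and 9.57 to 10.11, 10.12 and 10.37 (0.75 ± 0.10). DHCR7, the last enzyme of cholesterol synthesis, rose from 12.81, 12.94 and 13.06 to 13.54, 13.78 and 13.68 (0.73 ± 0.08, adjusted p = 1.5e-05). FDFT1, squalene synthase, rose by 0.67 ± 0.09. Below the fold limit, SREBF2, the transcription factor of the pathway, was 0.57 higher, and SCD, the stearoyl desaturase, 0.52. The promoters of LSS and DHCR7 are shown with the box CCAAT, to which NF-Y binds beside the sterol regulatory factor in many genes of this pathway (GRCh38.p14, both on the minus strand, chr21:46228775-46229024 and chr11:71448394-71448643, capitals mark CCAAT or its complement ATTGG).
LSS: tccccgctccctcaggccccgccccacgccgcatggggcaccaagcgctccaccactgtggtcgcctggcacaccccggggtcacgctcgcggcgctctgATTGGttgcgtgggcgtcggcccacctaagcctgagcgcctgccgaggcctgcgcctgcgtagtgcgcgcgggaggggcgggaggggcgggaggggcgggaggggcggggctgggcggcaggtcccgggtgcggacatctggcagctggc
DHCR7: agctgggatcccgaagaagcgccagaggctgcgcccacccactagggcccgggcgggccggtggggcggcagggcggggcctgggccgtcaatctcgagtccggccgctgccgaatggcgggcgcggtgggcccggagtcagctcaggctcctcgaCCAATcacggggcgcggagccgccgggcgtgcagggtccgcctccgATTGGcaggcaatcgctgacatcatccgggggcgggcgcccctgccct
The box was in 23 of 34 promoters of the list's genes and in 32.0% of all promoters. It was also in 7 of 12 promoters of the list of alpha-arrestins and MondoA. DHCR7 has 2 annotated starts, and its window was chosen for the most matches.

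In amino acid metabolism, PHGDH, the first enzyme of serine synthesis, fell from 12.13, 11.62 and 11.82 to 10.95, 10.83 and 10.72, a log2 change of -1.02 ± 0.11 (adjusted p = 3.1e-05) with no overlap. Of the 18 serine and folate genes, MTHFD1, the cytosolic folate enzyme, was called higher at 0.73, or 0.58 without DMSO replicate 2, and ALDH1L2, a mitochondrial folate enzyme, called lower at -0.61 with an adjusted p of 0.044 that rose to between 0.0977 and 0.222 without DMSO replicate 1 or 2 or rotenone replicate 1 or 3. The 35 targets of ATF4 and CHOP, the transcription factors of the integrated stress response, had a median of -0.02 with both directions among the calls. CEBPB, a partner of CHOP, was 0.64 higher, or 0.56 without rotenone replicate 2. SLC6A9, a glycine transporter, fell by 0.71 on the log2 scale, from 6.90, 6.98 and 6.87 to 6.18, 6.38 and 6.07. GDF15, a secreted stress cytokine, stood at 8.69, 8.50 and 8.61 in DMSO and at 9.98, 9.30 and 9.27 in rotenone. It was 0.92 ± 0.25 higher (adjusted p = 0.024), with the highest value on slide 1, and the call was lost without DMSO replicate 1 or 3 or rotenone replicate 1 or 2 (adjusted p from 0.0712 to 0.144). ASNS, asparagine synthetase and a standard ATF4 target, was 0.55 lower with an adjusted p of 2.7e-04, and SESN2 was likewise 0.55 lower (adjusted p = 0.0030), both under the fold limit.

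The hnRNP and SR proteins, which bind nascent RNA and steer splicing, were lower far more often than higher. The median of the 44 genes was -0.33 (relative range -0.41 to -0.24), 5 were higher, and 28 were lower on all 3 slides, against 25.3% of all genes. Of these, 8 were called lower and none higher, and on p alone 18 passed lower, against 5.86% of all genes, and 1 higher (HNRNPC, at 0.29). SRSF3 measured 12.17, 12.18 and 12.10 in DMSO and 11.22, 11.18 and 11.14 in rotenone, a change of -0.98 ± 0.10 (adjusted p = 1.3e-05). The 3 arrays of each group lay within 0.1 of each other. SRSF10 fell from 9.76, 9.72 and 9.70 to 8.81, 9.09 and 9.03 (-0.75 ± 0.07, 4 probes). SRSF2 fell from 11.43, 11.24 and 11.28 to 10.59, 10.58 and 10.59 (-0.73 ± 0.09), with a rotenone group spread of 0.01. CELF4, a neuronal regulator of splicing and mRNA stability, fell from 12.46, 12.85 and 12.82 to 11.66, 11.96 and 12.00 (-0.84 ± 0.10). TRA2A fell by 0.72, HNRNPA2B1 by 0.62, HNRNPM by 0.91 and HNRNPH1 by 0.59 on the log2 scale. HNRNPH1 lay at the edge of the 1.5-fold limit, and the calls of these 3 hnRNP genes were not followed on leaving out arrays. SRSF1 and TRA2B were 0.52 and 0.46 lower and passed on p alone.

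Tubulins, the subunits of microtubules, had the lowest median of the 71 lists, at -0.37 over 15 genes, with 2 higher and 10 lower on all slides. That median shrank to -0.12, or -0.09 relative to all genes, when each array was scaled to its 75th percentile in place of quantile normalization. TUBB4A, a brain beta-tubulin, was the called member, at 9.82, 10.20 and 9.81 against 9.36, 9.46 and 8.96 (-0.69 ± 0.17), and lost the call without DMSO replicate 3 or rotenone replicate 2 (adjusted p = 0.0754 and 0.0669). On p alone TUBB (-0.54), TUBB2A (-0.54), TUBB2B (-0.56), TUBB4B (-0.41) and TUBA1B (-0.37) were lower, while TUBB3, the neuronal marker, stood at -0.25 with an adjusted p of 0.17. Tubulin genes share much of their coding sequence, and cross-hybridization between them was not tested. Of 28 microtubule-associated proteins and 42 motor genes, 1 was called: MAP1A, at -0.60, a call lost without DMSO replicate 3 (-0.49) or rotenone replicate 3 (-0.56).

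Genes of protein turnover were also lower in small steps. Of 35 proteasome subunits none was called, but the median was -0.19 (relative range -0.23 to -0.09), 3 were higher, and 6 passed on p alone, all lower, led by PSMD1, a base subunit of the regulatory particle, at -0.49 (adjusted p = 0.0037). The 26 chaperones and unfolded protein response genes of the endoplasmic reticulum had a median of -0.19 and 7 genes lower on p alone. SEL1L, of the degradation machinery there, was called at -0.63, a call lost on leaving out any array but DMSO replicate 2 (adjusted p from 0.0592 to 0.0798). Among the 7 were HSPA5 (BiP), the major chaperone of that compartment, at -0.45, and DNAJB9 at -0.49. The 52 autophagy and lysosome genes had a median of -0.12 (relative range -0.20 to -0.06), with 28 lower and 8 higher on all slides. Of them 3 were called higher and 2 lower, and on p alone 4 were higher and 8 lower. In the lysosome, NPC2, which moves cholesterol out of the lumen, rose from 8.85, 8.85 and 8.999 to 9.61, 9.74 and 9.60 (0.75 ± 0.10). CTSL, a cysteine protease, rose by 0.71 ± 0.12. CTSF, another cysteine protease, was lower by 0.63, or by 0.58 without DMSO replicate 2. Among 81 cytosolic ribosomal proteins 62 were higher, with a median of 0.09 (relative range 0.09 to 0.29). The called one was RPL27A, lower by 1.24 on the log2 scale, whose family has many near-identical processed copies, so its value is uncertain.

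**Figure D3:**
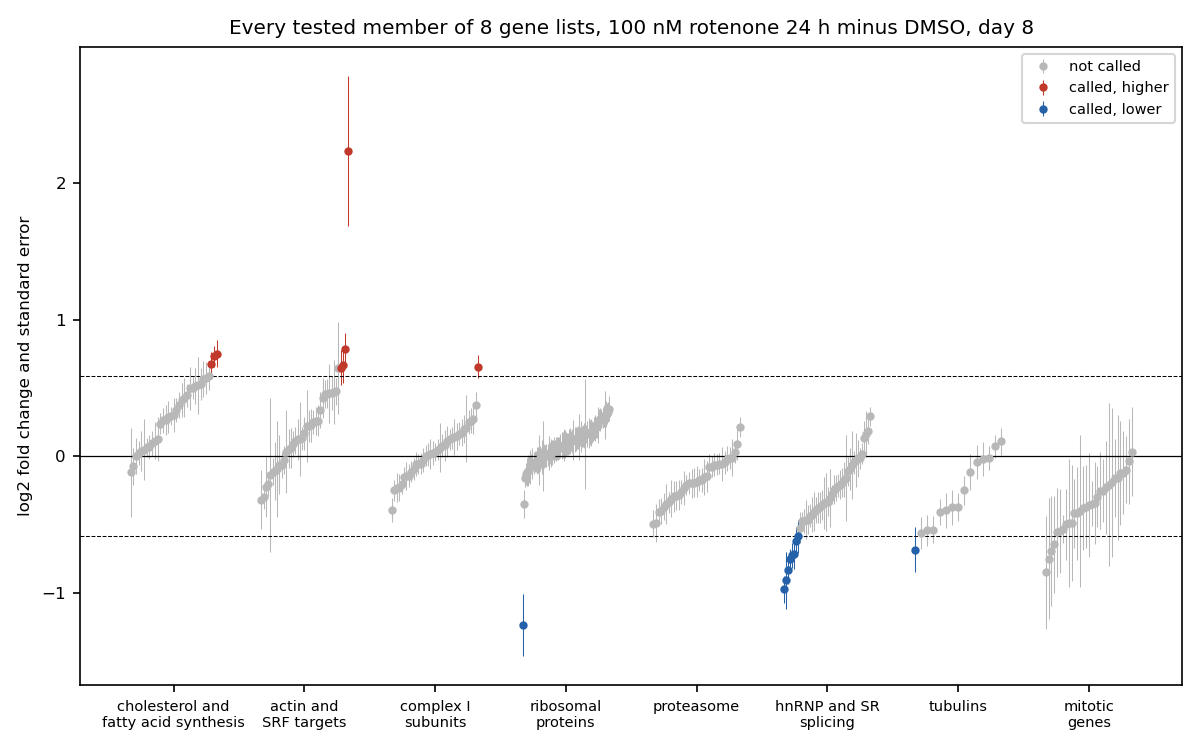
Log2 fold change with its standard error (y axis) of every tested member of 8 gene lists (x axis), sorted within each list, for 100 nM rotenone minus DMSO on day 8. Dashed lines mark 1.5-fold, and coloured points are called: 3 of 33 sterol genes lie above, 8 of 44 splicing genes lie below, and 31 mitotic genes have wide errors with none called.

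Actin and serum response factor (SRF) targets leaned upward. Of 39 genes, 28 were higher with a median of 0.17 (relative range 0.13 to 0.27), 4 were called higher and none lower. Besides ACTA1, FHL2, a LIM-domain cofactor of SRF, rose from 8.25, 7.78 and 8.03 to 8.89, 8.77 and 8.77 (0.79 ± 0.11, adjusted p = 2.7e-04), with the rotenone arrays above all DMSO arrays. TGFB1I1 (Hic-5), a focal adhesion adaptor, rose by 0.67 ± 0.13. ZYX, zyxin of the same structures, was 0.65 higher, or 0.58 without rotenone replicate 1. Vinculin (VCL) and alpha-actinin 1 (ACTN1) were each 0.46 higher on p alone. The ACTA1 promoter is shown with its CArG box, the binding sequence of SRF, in capitals (chr1:229434095-229434344, minus strand, GRCh38.p14).
ACTA1: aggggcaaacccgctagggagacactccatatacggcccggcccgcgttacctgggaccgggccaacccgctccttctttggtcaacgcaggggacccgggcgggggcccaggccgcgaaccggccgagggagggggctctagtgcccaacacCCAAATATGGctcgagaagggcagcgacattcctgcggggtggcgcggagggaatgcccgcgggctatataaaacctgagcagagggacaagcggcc
The box lies 97 bases before the start. It was in 14 of 73 promoters of this list's genes and in 1.16% of all promoters, and the list was drawn up from known SRF targets.

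Matrix and adhesion genes changed in both directions. Beside them, the summed signal of 9 fibroblast and mural markers ran from 310.2 to 369.8 in DMSO and from 348.5 to 413.9 in rotenone with none called, and its part in these results was not tested. Of 44 collagens, laminins and matricellular proteins, TNC, THBS4 and THBS2 were higher and COL5A2 and NTN1 lower. THBS4, a thrombospondin, rose from 7.67, 7.54 and 7.73 to 8.90, 8.69 and 8.63 (2.14-fold, log2 SE 0.14). COL5A2, a chain of type V collagen, fell from 8.73, 9.01 and 9.16 to 7.63, 7.99 and 7.90 (-1.13 ± 0.12, adjusted p = 1.6e-05). NTN1, the axon guidance cue netrin-1, fell by 1.05 ± 0.22. Among 41 adhesion genes, the cadherin CDH18 fell from 8.59, 8.56 and 8.52 to 7.06, 7.46 and 7.61 (-1.17 ± 0.10, adjusted p = 3.4e-06), CDH10 fell by 0.86, CDH11 by 0.97 and the neural adhesion molecule NCAM2 by 0.71. CDH3 (1.09), FAT1 (1.01) and ITGA3 (0.80) rose. The 61 protocadherins had a median of -0.15, with 4 called lower and none higher, PCDH8, PCDH20 (-0.98 ± 0.18) and PCDH17 (-0.70 ± 0.16) among them. PCDH17 lost its call without DMSO replicate 3 (adjusted p = 0.0748), and the other shares near-identical sequence with a paralog, so its value is uncertain.

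Guidance and neurotrophic genes had more calls lower than higher, with medians of -0.06 and -0.11. By calls alone the Wnt and Notch lists were near even, with 3 lower and 2 higher, and 2 each way. The Wnt median was nevertheless -0.18 (relative range -0.26 to -0.07), with 13 of 32 genes higher, and on p alone 5 were lower and 2 higher. The Notch median was -0.06. Of 63 guidance genes, 4 were called lower and 1 higher, and on p alone 10 lower and 2 higher. The class 3 semaphorin SEMA3D, a secreted repellent, fell from 9.82, 10.39 and 9.82 to 8.56, 9.42 and 9.11 (-0.98 ± 0.14). SEMA3A, another, was 0.67 lower, though 0.58 without DMSO replicate 1. In the Wnt list of 32 genes, RSPO3, a secreted amplifier of the pathway, fell from 7.75, 8.32 and 8.18 to 6.81, 7.25 and 6.98 (-1.07 ± 0.17), and the receptor FZD3 was called 0.68 lower though its arrays overlapped between slides, while NKD2 rose. FZD7, another receptor, was called lower, though at -0.56 without rotenone replicate 1, and SFRP1, a secreted Wnt antagonist, higher at 0.60, a call lost without DMSO replicate 1 or 2 or rotenone replicate 1 (0.525 to 0.55). In the Notch list of 23, DLK1, a non-canonical ligand, rose from 9.31, 9.25 and 9.28 to 10.60, 10.58 and 10.47 (1.27 ± 0.15), MFNG, the glycosyltransferase manic fringe, rose by 0.77 ± 0.11, and the target HEY1 fell by 0.74. The target HES5 was 0.73 lower, though 0.53 without DMSO replicate 1. Of 28 neurotrophic factors and receptors, 3 were called, all lower: PSPN, persephin, a ligand of the GDNF family, at -0.99 ± 0.13, NTRK3, the neurotrophin-3 receptor, at -0.83 ± 0.11, and GFRA2, the neurturin co-receptor, at -0.74 ± 0.12. The 39 proneural and neuronal transcription factors had a median of -0.22, with 2 called lower and 1 higher (NHLH1, at 0.61, and 0.53 to 0.57 without DMSO replicate 1 or 2 or rotenone replicate 1). POU3F2, a driver of neuronal fate, fell from 10.95, 11.28 and 10.85 to 10.13, 10.34 and 10.34 (-0.76 ± 0.13).

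Of peptide precursors 12.5% were called, of voltage-gated sodium and calcium channels 9.4% and of potassium channels 8.9%, against 3.41% of all genes. Synaptic vesicle genes (2%) and transmitter receptors (2.3%) lay below that share. Calls went both ways among 32 sodium and calcium channel genes (1 higher, 2 lower) and 56 potassium channel genes (2 higher, 3 lower). Of 32 peptide precursors and processing genes, 4 were called higher and none lower, with a median of -0.02. GAL, the neuropeptide galanin, rose from 11.24, 10.61 and 10.81 to 12.17, 11.81 and 11.80 (1.04 ± 0.17, adjusted p = 8.8e-04), while its receptor GALR1 was 0.62 lower, a call lost without DMSO replicate 1 (-0.53) or rotenone replicate 1 (-0.48). SCG2, secretogranin II, rose by 0.70. VGF and the natriuretic peptide NPPC were 0.68 and 1.01 higher, and both calls were lost without rotenone replicate 1 (adjusted p = 0.0577 and 0.0795). Of 50 synaptic vesicle and release genes 1 was called, and of 31 postsynaptic genes none. GRM2, a presynaptic glutamate receptor, fell from 11.11, 11.28 and 10.94 to 10.49, 10.49 and 10.26 (-0.70 ± 0.09), the called member of 43 transmitter receptor subunits. CACNA2D2, an auxiliary calcium channel subunit, fell by 0.62 ± 0.08, and KCND2, a channel of A-type potassium current, by 0.84 ± 0.13.

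**Figure D4:**
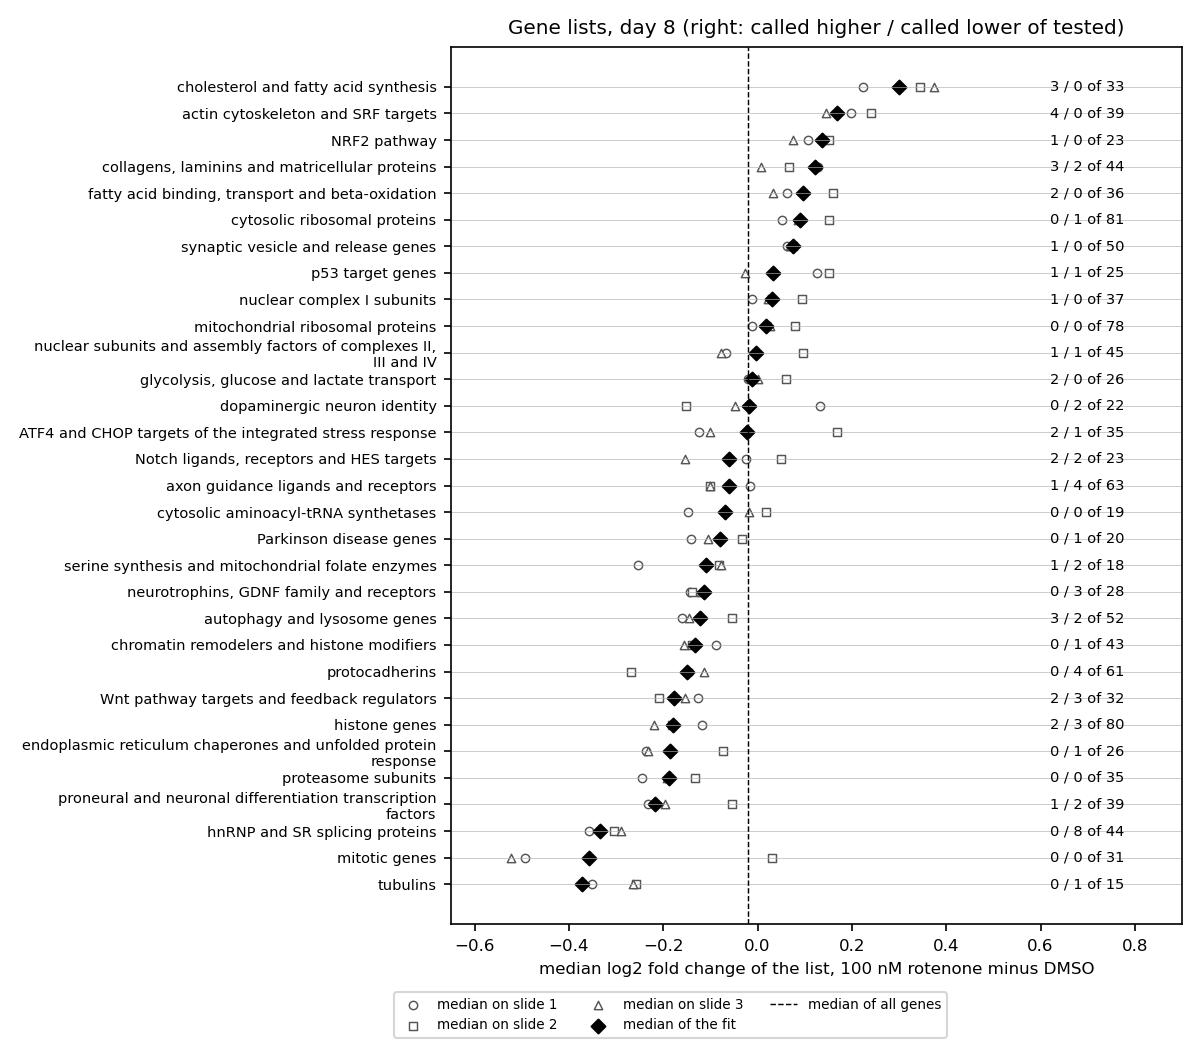
Median log2 fold change (x axis, 100 nM rotenone minus DMSO, day 8) of 31 gene lists (rows), with the median of the fit as a diamond and those of the slides as open symbols. The dashed line is the median of all genes, and the numbers at the right are genes called higher and lower of those tested. Cholesterol and fatty acid synthesis stands highest at 0.30 and tubulins lowest at -0.37, and the mitotic genes differ between slides.

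Of cell death and stress genes, 4.0% of the BCL2 family and caspases, 4.3% of NRF2 genes and 4.2% of HIF targets were called. The share was 4.3% of interferon-induced genes, 10% of metallothioneins and 14.3% of immediate early genes, against 3.41% of all genes. None of 19 superoxide dismutase, catalase, peroxiredoxin and glutathione peroxidase genes was called. Of 25 BCL2 family and caspase genes, HRK, a BH3-only protein that neurons make on losing trophic support, was the called one, at 9.37, 9.96 and 9.93 in DMSO and 11.15, 11.05 and 10.91 in rotenone (1.28 ± 0.19, adjusted p = 4.2e-04). Every rotenone array lay above every DMSO array. HMOX1, heme oxygenase 1, was the 1 called of 23 NRF2 genes. It was 0.78 higher with slide differences of 1.34, 0.83 and 0.17, and lost the call without DMSO replicate 1 or 2 or rotenone replicate 1 or 2 (adjusted p from 0.0724 to 0.161). The metallothionein MT2A behaved in the same way, with an adjusted p of 0.0249 that rose to between 0.0869 and 0.125 without DMSO replicate 1 or 3 or rotenone replicate 1 or 2. ANKRD37, a target of hypoxia-inducible factor, was 0.79 higher, the call of 24 HIF targets. ISG15, the interferon-induced ubiquitin-like protein, rose from 9.01, 8.70 and 8.96 to 9.81, 9.55 and 9.83 (0.84 ± 0.09, adjusted p = 1.8e-05), with no other called gene among 23 interferon-induced genes. Of 28 immediate early genes, 2 were called higher and 2 lower. DUSP6, the ERK phosphatase, was 0.70 higher and JUND, an AP-1 subunit, 0.65 higher (0.58 without DMSO replicate 2), while IER5 fell by 0.73, as did KLF10.

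Among identity genes of the dopaminergic neuron, 2 of 22 were called (9.1%, against 3.41% of all genes), both lower. On p alone 3 were lower and 0 higher, and the list median was -0.02. EN1, a marker of that identity, was 0.41 lower (limma adjusted p = 0.015), under the fold limit. TH, tyrosine hydroxylase, stood at 9.71, 9.87 and 9.77 in DMSO and at 9.93, 10.29 and 10.22 in rotenone, a difference of 0.36 ± 0.24 (adjusted p = 0.46) although the arrays did not overlap. SLC6A3, the dopamine transporter, overlapped (0.10 ± 0.28). In the list of 22 identity genes, SLC10A4, a vesicular orphan transporter of monoamine neurons, was 0.67 lower, or 0.57 without rotenone replicate 1. TOP2B, the topoisomerase of postmitotic neurons, stood at 12.45, 12.73 and 12.73 in DMSO and 11.90, 12.13 and 12.26 in rotenone. That is 0.54 lower (adjusted p = 4.6e-05), with no overlap and short of 1.5-fold.

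Mitotic genes were lower without a call. Of 31, 1 was higher, the median was -0.36, and the medians on slides 1, 2 and 3 were -0.49, 0.03 and -0.52, so slide 2 stood apart. Over the settings the median, with nothing subtracted, ran from -0.62 without DMSO replicate 2 to -0.10 without DMSO replicate 1. PRC1, which bundles the spindle midzone, had the smallest p, at -0.54 (adjusted p = 0.0032). Of 32 DNA replication genes POLA1, the catalytic subunit of the polymerase that starts each strand, was 0.66 lower, or 0.57 without DMSO replicate 1. Several of the progenitor markers given above, whose median was -0.39, belong to dividing cells as well, and their part in these values was not tested.

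By transcript class, 275 of 17965 protein-coding genes were called higher (1.53%) and 358 lower (1.99%), and of 2417 long non-coding RNAs 27 and 42. Named examples were LINC02525, which rose by 0.95 ± 0.09, HDHD5-AS1, which rose by 1.21 ± 0.11, and PSMG3-AS1, which fell by 0.92 on the log2 scale. MIR7-3HG, a host transcript of miR-7 in endocrine and brain cells, rose from 5.201, 5.36 and 5.33 to 6.69, 6.58 and 6.37 (1.25 ± 0.24). Of 15 transcripts annotated as small nuclear RNA, 6 were called lower and none higher, all of the SNAR family, with changes from -0.95 (SNAR-G1) to -1.34 (SNAR-F). These copies are near-identical in sequence, so they are not separate measurements and their values are uncertain. The 492 genes named ZNF, nearly all zinc finger transcription factors, had a median of -0.11 (relative range -0.17 to -0.06), 155 were higher, and on p alone 47 passed lower and 12 higher. The median of the 80 histone genes was -0.18, with values that near-identical copies leave uncertain.

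Among genes of the longest genomic span, calls were more often lower than higher. The 13072 measured protein-coding genes were split into 5 groups of near-equal size by span from first to last base. In the group of the shortest genes, with a median span of 4621 bases, 3.10% were called higher and 3.33% lower. In that of the longest, with a median of 166043 bases, 1.11% were called higher and 3.67% lower, which is 29 against 96 genes. The median log2 fold change of a whole span group differed little, from -0.02 to -0.06. No test was run on this split, and the median level also fell with span, from 8.82 to 7.80 on the log2 scale.

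The other exposures share the DMSO arrays of day 8 and are set beside the 100 nM values without a test of likeness. After 50 nM for 24 h, 602 genes were called (2.82%), and after 50 nM for 12 h, 389 (1.82%). TXNIP was at -2.62 after 50 nM for 12 h, -2.32 after 50 nM for 24 h and -2.55 after 100 nM. FABP3 was at 0.65, 2.17 and 2.33, and GPR39 at -0.74, -1.11 and -1.67. For the splicing list the medians were -0.19, -0.25 and -0.33. For cholesterol and fatty acid synthesis they were 0.01, 0.32 and 0.30, with LSS at 0.01, 0.75 and 0.75.

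Tested directly, 100 nM against 50 nM at 24 h gave no called gene (limma, smallest adjusted p = 0.9996), with 851 genes (3.99%) at an unadjusted p under 0.05 and 43 at an unadjusted p under 0.01 and over 1.5-fold. Without replicate 1 of the 50 nM 24 h group, 2 genes were called. A missed threshold does not show equal action. The 95% interval of the difference between doses, unadjusted for the number of genes, was a median of 0.36 to either side over all genes. Among the 8 genes with the smallest p, CDH10 was 0.62 lower at the higher dose (interval -0.87 to -0.36), CREB1, the cAMP response element binding protein, 0.59 lower (-0.84 to -0.35) and TUBB2B 0.50 lower (-0.75 to -0.26).

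On day 15, after washout, the same exposure against day 15 DMSO gave no called gene (limma, smallest adjusted p = 0.209, with 1753 genes or 8.21% at an unadjusted p under 0.05). The difference between the day 8 and the day 15 change passed for 442 genes (2.07%), 328 of them among the 728. It was -2.41 ± 0.20 for TXNIP, 2.60 ± 0.19 for BDKRB2, 2.19 ± 0.26 for FABP3, -1.73 ± 0.19 for PCDH8 and -0.98 ± 0.14 for SRSF3. ACTA1, at 1.41 on day 15 (limma adjusted p = 0.58), gave a difference of 0.83 ± 0.77 (adjusted p = 0.68). GDF15, at 0.87 on day 15 (limma adjusted p = 0.52), gave 0.05 ± 0.35. An uncalled difference does not show that a change lasted. The 442 became 284 without rotenone replicate 1 of day 8. For replicate 1 of day 15 DMSO, the name of the scan gives no treatment and the group rests on the sample's label, and without it 398 genes passed.

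**Figure D5:**
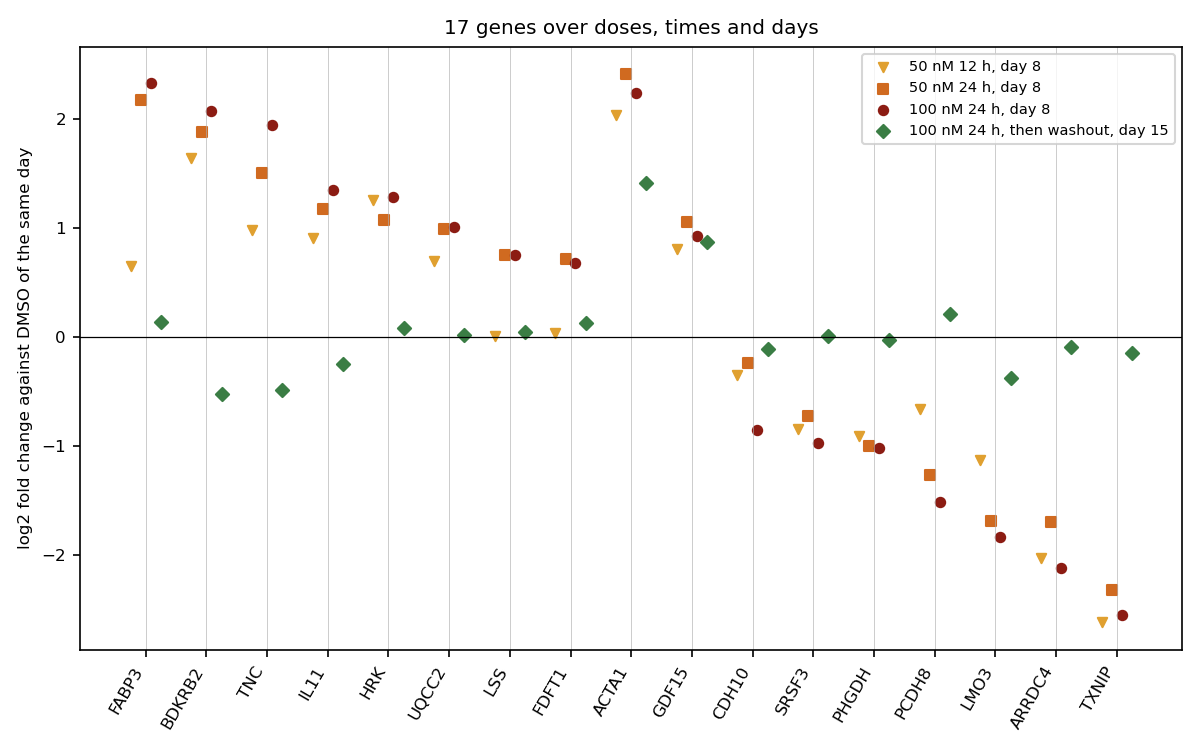
Log2 fold change against DMSO of the same day (y axis) for 17 genes chosen to show the patterns after their values were seen (x axis), with 1 symbol for each exposure. The 3 day 8 exposures share DMSO arrays. Day 15 values lie near 0 for most, while ACTA1 (1.41) and GDF15 (0.87) lie above it, though neither was called on day 15.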

How the data were processed

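Total RNA (mirVana kit) was labelled with Cy3 and hybridized to Agilent SurePrint G3 Human v2 8x60K arrays, 24 in all. Per the file headers, the deposited scanner files hold spot intensity from Feature Extraction 11.5.1.1 (slides 1 and 3) or 12.0.0.7 (slide 2). The series table deposited by the authors holds their normalized log2 values. Their columns correlated with the values used here at r from 0.947 to 0.959, and it served as an alternative.

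Following the study's methods, the median signal was corrected with normexp (offset 0) and quantile-normalized. Spots were kept where they exceeded 1.1 times the 95th percentile of 308 negative controls on at least 3 arrays, control and flagged spots were dropped, and spots and probes were averaged per gene (limma 3.58.1, R 4.3.3). Probes were named by RefSeq accession: 29563 of 48705 probes, 21344 genes. The fit used all 24 arrays with slide as a block (14 residual degrees of freedom). The methods corrected slide 1 with ComBat, an alternative here (computed in base R).

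Same-numbered arrays share a slide. The deviations of all 84 same-numbered pairs correlated (lowest r 0.171, median 0.458), against a median of -0.354 for other pairs.

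Members and lists were chosen with earlier results of these data known. Genes were named by rule: the 12 largest called increases and decreases of 1 sign on all slides that were well above background in both groups, up to 5 called genes of a list by p (otherwise the member of smallest p), up to 3 of a transcript class, members of short lists, the 8 smallest p between doses, and TH, SLC6A3, SLC18A2, TOP2B and NDUFS1. Further genes were added after their values were seen, and some genes that the rule takes are not reported here. The scripts were tested on simulated data. Array number and signal over background limit precision. Gene symbols follow current RefSeq names, the array design is older, and sequences come from RefSeq (GRCh38.p14). Figures used Python 3.11.15 and matplotlib 3.10.9.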

Additional observations from a re-analysis of the deposited data

Results flagged for a closer look

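The day 8 change after 100 nM rotenone differed from the day 15 change, by a limma test of the difference itself, for 442 genes, and these included 23 of the 24 genes with the largest day 8 changes. The difference (day 8 change minus day 15 change, log2 scale) was 2.19 for FABP3, 2.60 for BDKRB2, 2.43 for TNC, 1.46 for PRSS56, 1.64 for ADIRF, 1.33 for ECEL1, 1.57 for LINC02308, 1.51 for C11orf96, 1.47 for NKD2, 1.64 for TMEM190 and 1.59 for IL11. It was -2.41 for TXNIP, -2.03 for ARRDC4, -2.01 for SPMIP6, -1.49 for SCML4, -1.90 for H1-10-AS1, -1.46 for LMO3, -1.83 for GPR39, -1.37 for AMH, -1.38 for LINC01163, -1.43 for ACKR1, -1.58 for LRRC66 and -1.73 for PCDH8. These genes were taken for their large day 8 change, which the difference contains.

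Probes that could not be paired with a symbol carried signal outside the comparisons by gene. Of 19142 such probes tested, 226 were called (1.18%), 93 higher and 133 lower, and 207 of them were well above background on all 3 arrays of the brighter group. Among probes with a symbol 3.26% were called.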

How the results depend on the processing

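Of the 728 called genes, 691 of 733 were shared with ComBat in place of the slide block, and 717 of 730 with slide as a random block. The count moved with no replicate block (407, all among the 728), slides 2 and 3 alone (431, of which 365 shared), a normexp offset of 50 (391), the 6 compared arrays alone (0) and any fold (2185). Leaving out 1 array gave 615 to 729 calls. Other scalings, filters and probe rules gave 684 (authors' values) to 1026 (processed signal, 579 higher and 447 lower). Between doses the count of 0 became 43 at an unadjusted p under 0.01, and leave-one-out fits gave 0 to 2. The day difference of 442 became 88 with no replicate block, 42 on slides 2 and 3, 18 with the compared arrays alone, 757 at an unadjusted p under 0.01, and 284 to 495 on leaving out 1 array. Of 157 called genes that the naming rule took, 99 kept the call in each of the 6 fits that left out 1 array, 3 lost it in all 6, and all lost it with the compared arrays alone, where few degrees of freedom remain. Of uncalled genes, SLC6A3 ran from -0.21 (without DMSO replicate 2) to 0.33 on leaving out 1 array, and also turned lower without rotenone replicate 1 (-0.19). NDUFS1 turned to 0.020 with scaling to the 75th percentile and ran from -0.0762 to 0.013 on leaving out 1 array, higher without rotenone replicate 3 or DMSO replicate 2. Among the genes named in the report, calls kept on leaving out any 1 array were lost on slides 2 and 3 alone for TNC, ANKRD37, DUSP6, HEY1, NTN1, CDH3, CDH11, SCG2, PCDH20, RPL27A and TGFB1I1, with no replicate block for FDFT1, FZD3, KCND2, GFRA2, TRA2A, TGFB1I1, CDH11 and RPL27A, with slide as a random block for FZD3, with the authors' values for THBS4 and CTSL, and with a normexp offset of 50 for SLC6A9, CACNA2D2, NTRK3, TGFB1I1 and CDH11. The causes were not tested. The calls of HNRNPA2B1, HNRNPM, HNRNPH1, FAT1, ITGA3 and the SNAR transcripts were not followed over these settings.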

Other observations

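Among called probes that no symbol could be given here, A_23_P417918 fell by 2.28 on the log2 scale, from 10.5 ± 0.12 to 8.203 ± 0.11 (SD, n = 3, limma adjusted p = 4.0e-06). A_33_P3792489 fell by 1.53, from 7.38 ± 0.18 to 5.85 ± 0.35. A_21_P0010427 rose by 1.78, from 5.28 ± 0.57 to 7.06 ± 0.23, and A_21_P0006168 by 1.93, from 5.14 ± 0.40 to 7.06 ± 0.38.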
